A study of Homo sapiens with 12 samples.

Results

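Cells build fatty acids from citrate in a short chain of enzymes, and the 10 genes described here encode that chain and its regulator. They are ACLY, ACACA and FASN (synthesis), ELOVL6 and ELOVL5 (elongation), SCD, FADS2 and FADS1 (desaturation), ACSL3 (activation) and SREBF1 (transcriptional control). The members were given by symbol and matched to the deposited table by Ensembl identifier. All 10 were found among the 60604 gene identifiers, and all 10 passed the filter on low counts that left 19662 genes for testing. FASN, ACACA, ACLY and SREBF1 lie on chromosome 17, FADS1 and FADS2 on 11, SCD on 10, ELOVL5 on 6, ELOVL6 on 4 and ACSL3 on 2. FASN (ENSG00000169710) spans chr17:82078333-82098332 on the minus strand and FADS2 (ENSG00000134824) spans chr11:61792980-61867354 on the plus strand (GRCh38, GENCODE v29).

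In the textbook pathway, ATP citrate lyase releases acetyl-CoA in the cytosol, acetyl-CoA carboxylase makes malonyl-CoA from it, and fatty acid synthase assembles the saturated chain. Elongases and desaturases then shape that chain, or the polyunsaturated fatty acids taken up from the medium, before the acyl chains enter membranes and lipid droplets. The transcription factor SREBP-1, the product of SREBF1, drives many of these genes when its membrane-bound precursor is cleaved and its active part reaches the nucleus, so the level of the SREBF1 transcript is not a measure of SREBP-1 activity.

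RNA was sequenced from HEK293T, a human embryonic kidney line that carries the SV40 large T antigen. The 4 libraries of dCas9-VP160 with guides came from cells transfected for 48 h with the vector labelled sgRNA-dCas9-VP160-P2A-EGF and 6 guide RNAs for the CD34 promoter. The 4 libraries of dCas9-VP160 alone came from cells given the vector without those guides, and the last 4 came from cells that received no plasmid. The fusion joins a Cas9 that does not cut DNA to repeats of a viral activation domain. Transfected cells received Lipofectamine and 5.4 pmol of plasmid in all, in 100 mm dishes, and each library started from 1 ng of RNA. The labels call the cells without plasmid non-transfected in one place and treated with the transfection reagents alone in another. No group had a plasmid lacking dCas9-VP160, so plasmid and protein cannot be told apart. Each of 2 experiments used its own batch of cells and held 2 technical replicates per group, and both transfected groups are set against the same no plasmid libraries.

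The 12 libraries held 6750035 to 11932244 gene counts. CD34, the target of the guides, had 664 to 942 counts with guides, 7 to 10 with dCas9-VP160 alone and 13 to 28 without plasmid. Spike-in sequences took up to 0.719% of counts in the no plasmid libraries of experiment 1 and at most 0.00818% elsewhere. Mitochondrially encoded genes took 5.57 to 7.50% of counts with guides, 5.14 to 5.63% with dCas9-VP160 alone and 8.31 to 8.78% without plasmid. This share thus moved with the groups compared below. Within the group with guides these genes took 5.57 and 5.59% in the first technical replicates and 7.50 and 7.44% in the second. With those genes left out of the fit 8, 7 and 3 members passed the test in the 3 comparisons between groups, instead of 8, 8 and 3, and the 1 lost was SREBF1 with guides against no plasmid (adjusted p = 0.0506). Of 7 markers chosen for the line, KRT8, KRT18, VIM and NEFL were abundant, while PAX2 had 1 to 12 counts, NEFM 5 to 31 and LHX1 16 to 63. These 7 summed to 1920 to 2059 CPM with guides, 1958 to 2139 with dCas9-VP160 alone and 1705.5 to 1909 without plasmid. For the marker sums CPM is relative to the unscaled total of gene counts. Elsewhere CPM is relative to TMM-scaled library size. Lipogenic enzymes are abundant in liver and fat, whose defining markers were near 0: ALB had 0 to 4 counts and ADIPOQ 0 to 1. The 8 hepatocyte markers summed to 3.63 to 4.65 CPM with guides, 5.62 to 6.42 with dCas9-VP160 alone and 3.70 to 4.85 without plasmid. The 6 adipocyte markers, mostly LPL, summed to 25.5 to 27.1 CPM with guides, 22.0 to 26.2 with dCas9-VP160 alone and 20.6 to 23.2 without plasmid. For the 6 blood cell markers the sums were 2.43 to 3.29 CPM with guides, 2.20 to 4.30 with dCas9-VP160 alone and 4.93 to 5.67 without plasmid, and PTPRC had 0 to 1 counts. The part of these markers in the results was not tested.

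The RefSeq promoter table (GRCh38.p14) held windows for 9 of the 10 members, 13 windows in all. The letters below are the longest stretch of a window that overlaps no exon of GENCODE v29, shown for 4 members whose libraries separated between groups. FADS1 and FADS2 are printed side by side because they are neighbours on opposite strands of chromosome 11. The FADS1 start site (61817003, minus strand) and the lowest-numbered FADS2 start site in that table (61816203, plus strand) lie 800 bases apart. Transcripts from these start sites would overlap in their first bases. The promoter table also held a FADS2 start at 61816404, and GENCODE v29 begins the gene at 61792980. Which FADS2 start these cells used was not tested, so the stretch printed need not be the main FADS2 promoter.
SCD: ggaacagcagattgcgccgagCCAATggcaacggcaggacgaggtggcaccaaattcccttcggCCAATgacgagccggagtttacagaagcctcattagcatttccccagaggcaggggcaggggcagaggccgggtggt
FADS2: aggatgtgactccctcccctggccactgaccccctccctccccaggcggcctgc
FADS1: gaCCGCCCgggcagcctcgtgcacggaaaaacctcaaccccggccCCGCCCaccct
ACSL3: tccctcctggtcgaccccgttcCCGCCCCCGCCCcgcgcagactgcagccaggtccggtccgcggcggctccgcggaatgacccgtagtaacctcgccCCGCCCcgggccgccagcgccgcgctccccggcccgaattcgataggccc
The stretches are chr10:100346983-100347123 (plus strand) for SCD, chr11:61816149-61816202 (plus) for FADS2, chr11:61817198-61817253 (minus) for FADS1 and chr2:222860786-222860933 (plus) for ACSL3, each read 5′ to 3′ on the gene's strand. Capitals mark CCAAT (the box bound by NF-Y) and GGGCGG (the GC box bound by SP1), on either strand. A CCAAT box often stands beside an SREBP site in lipogenic promoters.

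The 250 bases before each start site were also searched on both strands for TCACNCCAC, a form of the sterol regulatory element, and for the E-box CACGTG, letters that SREBP-1 can bind. TCACNCCAC was in 0.883% of all 35116 RefSeq windows and in 0 of the 13 member windows. CACGTG was in 6.34% of all windows and, among members, only in that of ELOVL5, at position -211. CCAAT was in 32% of all windows and in 2 of the 3 ACACA windows and those of ACLY, SCD, ELOVL5 and ACSL3, with copies at positions -229 and -186 for SCD and -122 and -68 for ELOVL5. GGGCGG was in 42.6% of all windows and absent from that of ELOVL5, from the FADS2 window printed above and from 1 of the ACACA windows. These are matches of letters, in more than 1 window for ACACA, ACLY and FADS2, and say nothing of binding.

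Per kilobase of the principal transcript, FADS1, SCD and ACLY were the most abundant members with guides and with dCas9-VP160 alone, and FASN was among the least. With guides the order of levels in CPM per kb was FADS1 (86.2 ± 3.86, SD, n = 2 experiments), SCD (75.9 ± 1.56), ACLY (71.1 ± 13.4), ELOVL5 (63.7 ± 4.85), FADS2 (48.4 ± 5.67), ACSL3 (29.1 ± 0.207), ACACA (12.1 ± 0.655), SREBF1 (6.12 ± 1.00), ELOVL6 (4.97 ± 0.452) and FASN (4.85 ± 0.153). SCD, ACLY and ELOVL5 did not differ from their neighbour in that list beyond the sum of their SDs, nor did SREBF1, ELOVL6 and FASN. With dCas9-VP160 alone the order was the same, with FADS2 (47.0 ± 5.98) below ELOVL5 (56.7 ± 1.11) and FASN (4.67 ± 0.0235) the lowest, within the spread of ELOVL6 (5.11 ± 0.443). Without plasmid SCD (87.3 ± 5.01) stood first and FADS1 (83.9 ± 3.53) next, FADS2 (69.5 ± 11.7) stood above ELOVL5 (52.9 ± 2.62), and FASN (7.55 ± 0.537) stood above SREBF1 (7.01 ± 0.0817) and ELOVL6 (6.00 ± 0.652), of which SREBF1 was within its spread. The order depends on the length used: per kb of all annotated exons, FADS2 was below ELOVL5 in every group, at 15.9 against 47.2 with guides, 15.5 against 42.0 with dCas9-VP160 alone and 22.9 against 39.2 without plasmid.

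**Figure D1:**
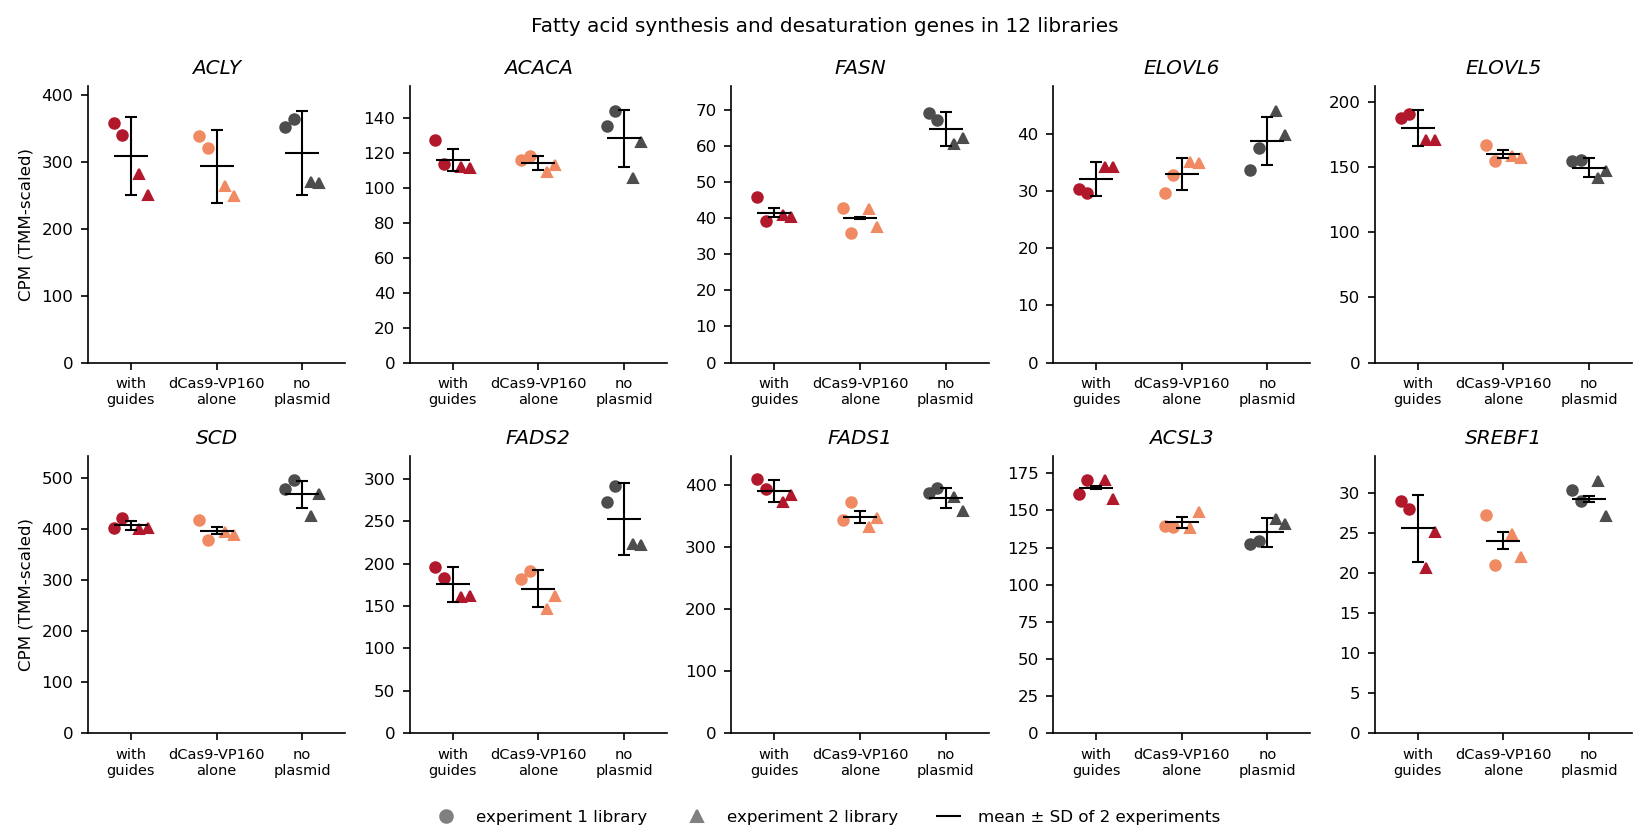
Level of each member (y, TMM-scaled CPM, from 0) in the 12 libraries, by group (x); circles are experiment 1, triangles experiment 2, bars the mean ± SD of 2 experiments. FASN, FADS2 and SCD lie lower in all 8 transfected libraries than in the 4 without plasmid, and ELOVL5 and ACSL3 are highest with guides.

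The first comparison set dCas9-VP160 alone against no plasmid and asked how these genes differed in cells that received the fusion without guides. Of the 10 members 8 were lower, 0 were higher and 2 did not pass the test, at an adjusted p under 0.05 in edgeR's quasi-likelihood test. Over all genes tested 51.2% passed, 24.6% as lower and 26.6% as higher, so a call by itself was common here. The median log2 fold change was -0.20 over the members and -0.002 over all genes, while the median size was 0.20 over the members and 0.29 over all genes. Of the 10, 3 had all 4 libraries below all 4 without plasmid (FASN, FADS2 and SCD), a pattern found in 17.7% of all genes, and 0 had all 4 above, found in 19.4%. Such counts pool the libraries of both experiments, so a difference between experiments can itself make groups overlap. In bulk RNA fewer cells that express a gene and less RNA per cell cannot be told apart.

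FASN, the multienzyme that builds palmitate, showed the largest change among the members. It had 42.8, 36.0, 42.6 and 37.6 CPM in the libraries of dCas9-VP160 alone, against 69.2, 67.3, 60.5 and 62.2 CPM without plasmid. The lowest library without plasmid was thus above the highest one with dCas9-VP160, in both experiments. FASN fell by 0.69 on the log2 scale (SE 0.06, adjusted p = 3.50e-10 by edgeR), a fold of 0.619, with -0.76 in experiment 1 and -0.62 in experiment 2. Among all genes tested, 8.28% had a log2 fold change as low as that of FASN or lower.

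The enzymes that supply FASN changed less. ACACA, the carboxylase that makes malonyl-CoA, had 116, 118, 109 and 113 CPM with dCas9-VP160 alone, against 135, 144, 105 and 126 CPM without plasmid. The lowest library of all 8 was one without plasmid, in experiment 2, so the groups overlapped. ACACA fell by 0.16 (SE 0.05, adjusted p = 0.00617). It changed by -0.08 without the no plasmid library of experiment 1 (adjusted p = 0.320), by -0.10 without the dCas9-VP160 library of experiment 1 (0.194), by -0.09 without the second technical replicates (0.291) and by -0.24 without the no plasmid library of experiment 2. ACLY, which cleaves citrate to acetyl-CoA, had 338, 320.5, 263 and 248 CPM with dCas9-VP160 alone, against 352, 363, 269.1 and 269 CPM without plasmid. Its levels differed more between experiments than between groups. ACLY fell by 0.09 (SE 0.04, adjusted p = 0.0341), a call that held in 6 of 19 alternative settings, with values of -0.15 to -0.04. Leaving out any 1 of the 6 summed libraries, or the second technical replicates, ended that call (adjusted p 0.0635 to 0.582).

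Within a library, where scaling cancels, FASN therefore took a smaller share relative to its suppliers. The ratio of FASN to ACACA counts was 0.369, 0.304, 0.392 and 0.333 with dCas9-VP160 alone, against 0.512, 0.468, 0.574 and 0.494 without plasmid. No library with dCas9-VP160 reached the lowest ratio without plasmid. The ratio of FASN to ACLY was 0.139 ± 0.025 with dCas9-VP160 alone and 0.209 ± 0.027 without plasmid (SD, n = 2), and its libraries did not overlap either.

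Among the desaturases FADS2 fell most. FADS2, which performs the first desaturation of linoleic and alpha-linolenic acid, had 182, 191, 146 and 162 CPM with dCas9-VP160 alone, against 272, 292, 223 and 222 CPM without plasmid. The groups did not overlap although both were lower in experiment 2. It fell by 0.56 (SE 0.04, adjusted p = 6.79e-12), with -0.60 and -0.52 in experiments 1 and 2. SCD, which makes oleate and palmitoleate, had 417, 378, 395 and 389 CPM with dCas9-VP160 alone, against 478, 496, 426 and 468 CPM without plasmid, again without overlap. It fell by 0.24 (SE 0.04, adjusted p = 2.62e-06), and by 0.15 without the second technical replicates (adjusted p = 0.0144).

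FADS1, the desaturase that acts later on the same polyunsaturated chains and gives arachidonic acid, had 344, 373, 333 and 347 CPM with dCas9-VP160 alone, against 387, 396, 381 and 358 CPM without plasmid. One library with dCas9-VP160, from experiment 1, lay inside the no plasmid range, whose lowest library was from experiment 2. FADS1 fell by 0.12 (SE 0.03, adjusted p = 0.00440), and changed by -0.10 without the dCas9-VP160 library of experiment 1 (adjusted p = 0.0581) and by -0.07 without the first technical replicates (0.308). FADS1 and FADS2 share 490 bp of exon on opposite strands, 4.79% of the exon length of FADS1 and 4.44% of that of FADS2, and reads there may be counted for either gene. The design text calls the sequencing directional, the kits named in the labels do not mark strand, and no source used here states the strand setting of the counting. The ratio of FADS2 to FADS1 was 0.529, 0.512, 0.440 and 0.465 with dCas9-VP160 alone, against 0.703, 0.736, 0.584 and 0.620 without plasmid. Every ratio with dCas9-VP160 was below every ratio without plasmid, as the plot of ratios shows.

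**Figure D2:**
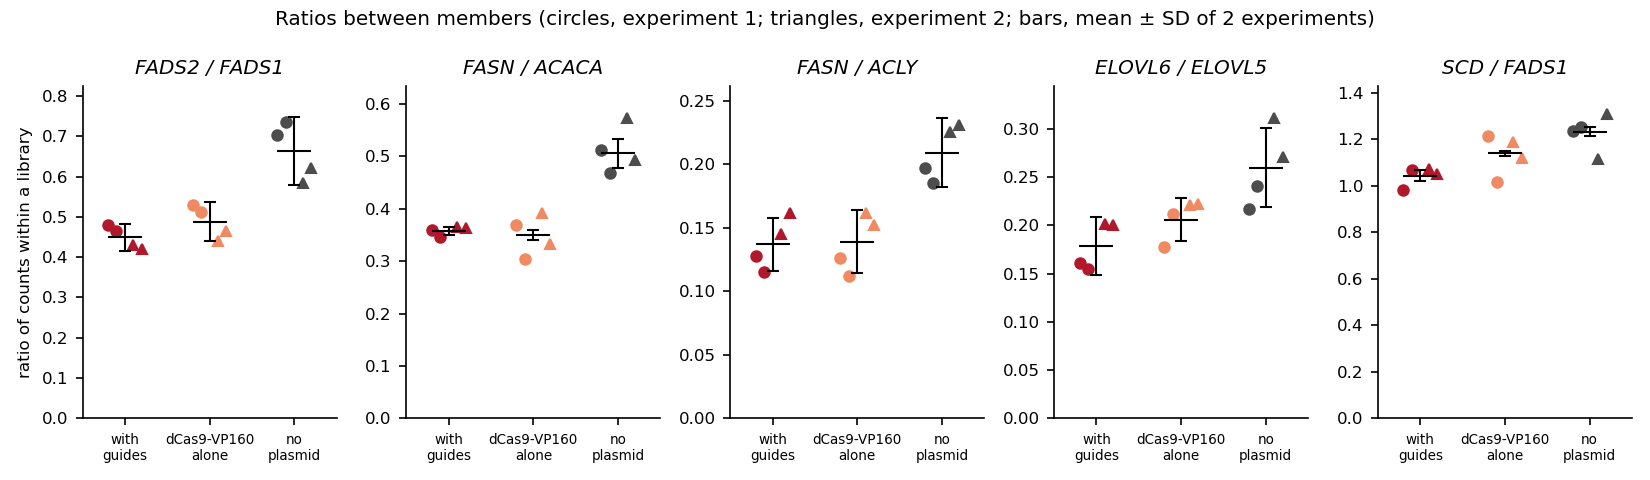
Ratio of the counts of 2 members within a library (y, from 0) by group (x); circles are experiment 1, triangles experiment 2, bars the mean ± SD of 2 experiments. FADS2 to FADS1, FASN to ACACA and FASN to ACLY are lower in all 8 transfected libraries than in the 4 without plasmid. ELOVL6 to ELOVL5 and SCD to FADS1 overlap between dCas9-VP160 alone (up to 0.222 and 1.213) and no plasmid (from 0.217 and 1.116). How often other gene pairs separate was not tested.

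Of the elongases ELOVL6 passed the test and ELOVL5 did not. ELOVL6, which extends palmitate to stearate, had 29.7, 32.8, 35.1 and 34.9 CPM with dCas9-VP160 alone, against 33.7, 37.5, 44.0 and 39.8 CPM without plasmid. The 2 libraries of dCas9-VP160 from experiment 2 were above the lowest one without plasmid, which was from experiment 1. ELOVL6 differed by -0.21 within experiment 1 and by -0.25 within experiment 2. It fell by 0.23 (SE 0.07, adjusted p = 0.00531). That call was lost without either group's library of experiment 2 (-0.21, adjusted p = 0.0701, without the no plasmid one and -0.22, 0.0632, without the dCas9-VP160 one) and without the first technical replicates (-0.20, 0.0942). ELOVL5, which extends polyunsaturated chains, had 167, 155, 158 and 157 CPM with dCas9-VP160 alone, against 155, 156, 141 and 147 CPM without plasmid. Its difference of 0.10 (SE 0.04) had an adjusted p of 0.0503 and did not pass the threshold. It passed without the dCas9-VP160 library of experiment 1 (0.15, adjusted p = 0.0172) and without the second technical replicates (0.14, 0.0453).

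ACSL3, an acyl-CoA synthetase of the endoplasmic reticulum and lipid droplets, had 139.5, 139, 138 and 149 CPM with dCas9-VP160 alone, against 127, 129, 144 and 141 CPM without plasmid. The difference of 0.07 (SE 0.05) did not pass (adjusted p = 0.194), and was 0.14 without the no plasmid library of experiment 2 (adjusted p = 0.0414). SREBF1 had 27.3, 21.1, 24.9 and 22.0 CPM with dCas9-VP160 alone, against 30.4, 28.99, 31.5 and 27.1 CPM without plasmid. Of the 4 libraries with dCas9-VP160, 3 were below the no plasmid range. SREBF1 fell by 0.28 (SE 0.08, adjusted p = 0.00491), and changed by -0.19 without the no plasmid library of experiment 2 (adjusted p = 0.146) and by -0.24 without the second technical replicates (0.0713). It shares 556 bp of exon (6.92%) with RAI1 on the opposite strand, and ACLY and ACSL3 share 156 and 102 bp with antisense genes.

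**Figure D3:**
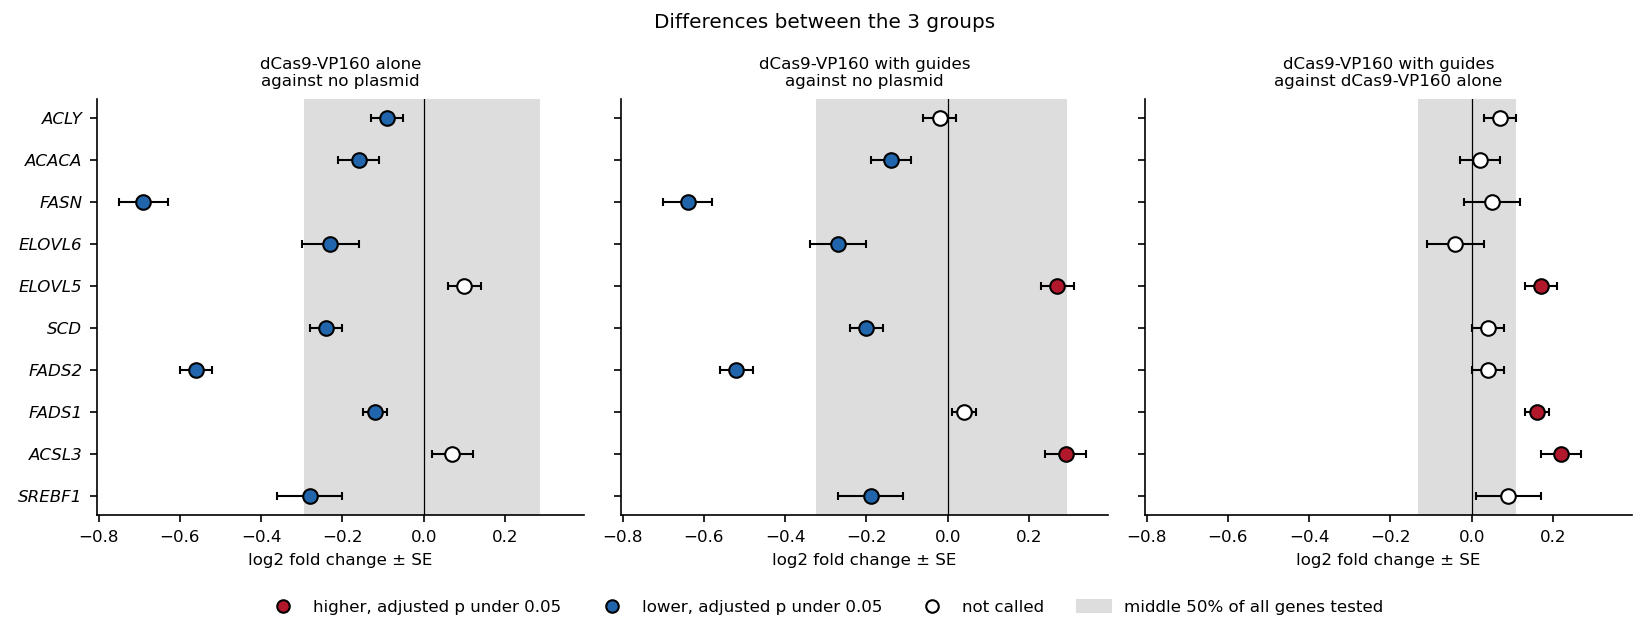
Log2 fold change ± SE (x) of each member (y) in the 3 comparisons, with higher members in red, lower in blue and those not passing an adjusted p of 0.05 in white. The grey band spans the middle 50% of all genes tested; FASN and FADS2 lie left of it in both comparisons with no plasmid, and ELOVL5, FADS1 and ACSL3 lie right of it in the comparison of both transfected groups.

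The second comparison set dCas9-VP160 with guides against no plasmid, with the same no plasmid libraries as the first. Of the 10 members 2 were higher (ELOVL5 and ACSL3), 6 were lower (FASN, FADS2, SCD, ELOVL6, ACACA and SREBF1) and 2 did not pass. Over all genes 52.6% passed, 26.7% as higher and 25.9% as lower. The members' median log2 fold change was -0.17, and that of all genes was -0.016. All 4 libraries with guides lay below the no plasmid libraries for 3 members (FASN, FADS2 and SCD) and above them for 2 (ELOVL5 and ACSL3), patterns that 19.0% and 19.9% of all genes showed.

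FASN had 45.7, 39.2, 40.8 and 40.4 CPM with guides, and fell by 0.64 against no plasmid (SE 0.06, adjusted p = 1.65e-09). Its highest library with guides was below its lowest without plasmid. FADS2 had 196, 183, 161 and 162 CPM with guides and fell by 0.52 (SE 0.04, adjusted p = 2.85e-11). SCD had 402, 422, 400.2 and 403 CPM and fell by 0.20 (SE 0.04, adjusted p = 2.53e-05). The ratio of FADS2 to FADS1 was 0.479, 0.465, 0.430 and 0.421 with guides, against 0.703, 0.736, 0.584 and 0.620 without plasmid, and FASN to ACACA was 0.358 ± 0.008 with guides and 0.506 ± 0.028 without plasmid (SD, n = 2). ELOVL6 had 30.3, 29.6, 34.2 and 34.2 CPM with guides, just overlapping the no plasmid range, and fell by 0.27 (SE 0.07, adjusted p = 0.00168), a call lost with DESeq2 (-0.26, adjusted p = 0.0535) and with no replicate block (-0.27, 0.113). ACACA had 127, 113, 112 and 111 CPM with guides and overlapped the no plasmid range. ACACA fell by 0.14 (SE 0.05, adjusted p = 0.0155). Without the no plasmid library of experiment 1 it changed by -0.05 (adjusted p = 0.511), without the library with guides of experiment 1 by -0.10 (0.252), and without the no plasmid library of experiment 2 by -0.22 (8.33e-04). From the second technical replicates alone the change was -0.27 (adjusted p = 0.00150), and from the first alone it was 0.0009296 (0.993). SREBF1 had 28.99, 28.0, 20.6 and 25.2 CPM with guides, so its lower values were in experiment 2. SREBF1 fell by 0.19 (SE 0.08, adjusted p = 0.0487), a call that held in 10 of 19 alternative settings. Its values within experiments were -0.05 and -0.36, and it changed by -0.06 without the library with guides of experiment 2 (adjusted p = 0.687) and by -0.10 without the no plasmid library of experiment 2 (0.453). Without the experiment 1 library of either group the change was larger, -0.33 without the one with guides (0.0131) and -0.29 without the no plasmid one (0.0181), and it was -0.07 without the first technical replicates (0.613) and -0.32 without the second (0.0176).

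ELOVL5 had 188, 191, 170.5 and 171 CPM with guides, all above the 141 to 156 CPM of the no plasmid libraries. It rose by 0.27 (SE 0.04, adjusted p = 6.70e-06), with 0.29 and 0.24 in experiments 1 and 2. ACSL3 had 161, 170.2, 170.3 and 158 CPM with guides, all above the 127 to 144 CPM without plasmid. It rose by 0.29 (SE 0.05, adjusted p = 4.11e-06), with 0.38 and 0.21 in experiments 1 and 2. ELOVL5 and ACSL3 remained called in all 19 alternative settings of this comparison. FADS1 (0.04, SE 0.03, adjusted p = 0.362) and ACLY (-0.02, SE 0.04, 0.684) did not pass, and under upper quartile scaling, which lowered the median of all genes to -0.063, FADS1 was at -0.008389.

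The third comparison, with guides against dCas9-VP160 alone, asked what the guides added. Of the 10 members 3 were higher, 0 were lower and 7 did not pass, against 7.56% of all genes passing, 4.16% as higher and 3.41% as lower. The same 3 (ACSL3, ELOVL5 and FADS1) had all 4 libraries with guides above all 4 with dCas9-VP160 alone, which held for 4.46% of all genes. ACSL3 had 157.6 to 170.3 CPM with guides, against 138 to 149 CPM with dCas9-VP160 alone, and rose by 0.22 (SE 0.05, adjusted p = 0.00240). ELOVL5 had 170.5 to 191 CPM with guides, against 155 to 167 CPM with dCas9-VP160 alone, and rose by 0.17 (SE 0.04, adjusted p = 0.0139). FADS1 had 409, 394, 373 and 384 CPM with guides, and its highest library with dCas9-VP160 alone had 373, so that these groups only just separated. FADS1 rose by 0.16 (SE 0.03, adjusted p = 0.00408). FASN differed by 0.05 (SE 0.07, adjusted p = 0.707), FADS2 by 0.04 (SE 0.04, 0.626) and SCD by 0.04 (SE 0.04, 0.631).

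These 3 calls depended on the libraries used. Within experiments 1 and 2 the differences were 0.25 and 0.19 for ACSL3, 0.22 and 0.11 for ELOVL5 and 0.18 and 0.15 for FADS1. The number of members called was 0 without the library with guides of experiment 1, 0 without the first technical replicates and 0 from experiment 2 alone. Without that library ACSL3 was at 0.17 (adjusted p = 0.163), ELOVL5 at 0.13 (0.343) and FADS1 at 0.16 (0.128), all still above 0. FADS1 also missed the threshold without the library with guides of experiment 2 (0.17, adjusted p = 0.0685). ELOVL5 missed it without the dCas9-VP160 alone library of experiment 1 (0.12, 0.202) and without the second technical replicates (0.14, 0.193), and the count was 2 in each of these 3 cases.

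The experiments themselves, done on different batches of cells, differed in 6 of the 10 members when experiment 2 was set against experiment 1 in 1 fit with the 3 groups. One was higher and 5 were lower, against 24.2% of all genes passing, 12% as higher and 12.2% as lower. ACLY had 282, 250.2, 263, 248, 269.1 and 269 CPM in the 6 libraries of experiment 2, against 358, 340.3, 338, 320.5, 352 and 363 CPM in those of experiment 1. Every experiment 2 library was below every experiment 1 library. ACLY fell by 0.39 (SE 0.03, adjusted p = 4.92e-10), with -0.39 with guides, -0.38 with dCas9-VP160 alone and -0.41 without plasmid. FADS2 fell by 0.28 (SE 0.03, adjusted p = 5.61e-07) and was lower in experiment 2 in each group. ACLY and FADS2 passed in all 14 alternative settings of this comparison.

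The remaining differences between experiments were smaller and depended on the libraries used. ELOVL6 rose by 0.20 (SE 0.06, adjusted p = 0.0106), ACACA fell by 0.15 (SE 0.04, 0.00660), ELOVL5 fell by 0.10 (SE 0.03, 0.0380) and FADS1 fell by 0.08 (SE 0.03, 0.0431). Without either no plasmid library, or without the first technical replicates, 2 members were called instead of 6. ACACA was then at -0.09, -0.09 and -0.10 and ELOVL6 at 0.18, 0.18 and 0.12. Without either library with guides, or without the second technical replicates, 4 were called, and ELOVL5 and FADS1 were the members lost. Whether a group's response differed between experiments was tested as an interaction. None of the 10 members passed in any of the 3 comparisons in edgeR or DESeq2, where 0 had an unadjusted p under 0.05 and the smallest in edgeR was 0.0704 (ACACA, dCas9-VP160 alone against no plasmid). Among all genes 0.0111% passed for dCas9-VP160 alone against no plasmid and 0% in the other comparisons, while 5.15%, 3.83% and 3.98% had an unadjusted p under 0.05 in the 3 comparisons as ordered above. Without the filter on low counts 1 member had an unadjusted p under 0.05 (0.0458). With guides against no plasmid the smallest, 0.0796, belonged to SREBF1.

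**Figure D4:**
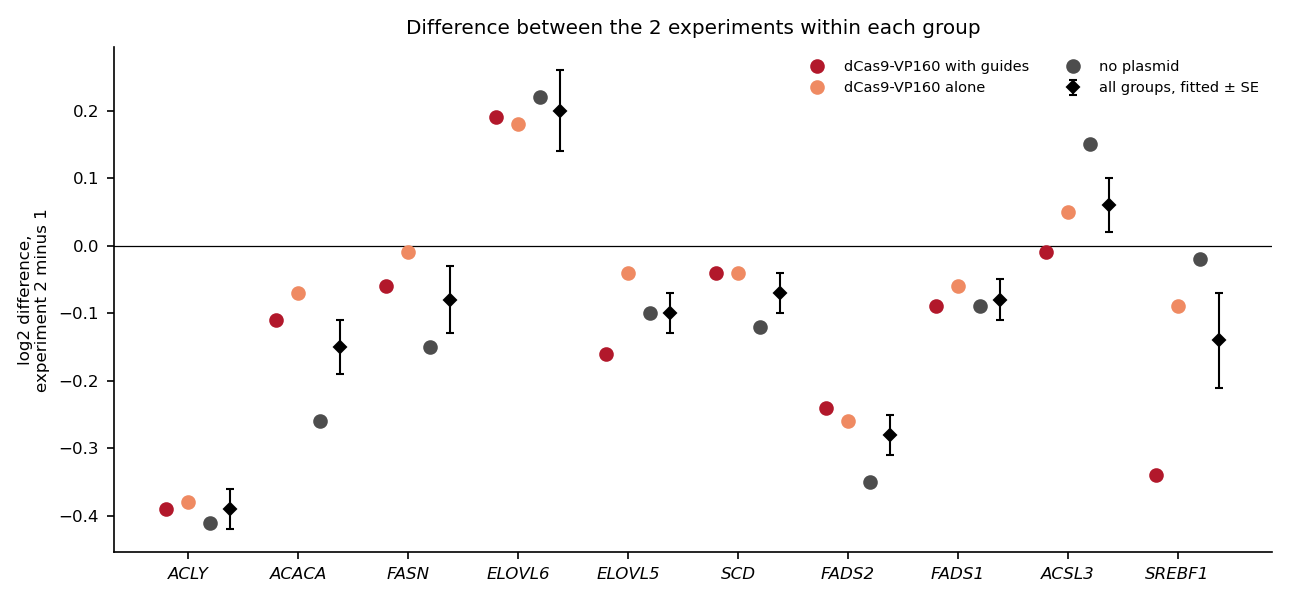
Log2 difference between experiment 2 and experiment 1 (y) for each member (x), within dCas9-VP160 with guides, dCas9-VP160 alone and no plasmid, beside the fitted difference ± SE over all groups. ACLY lies near -0.4 and ELOVL6 near 0.2 in all 3 groups, while SREBF1 spans -0.34 to -0.02.

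Other lipid genes, from 8 lists of 171 genes of which 161 were tested, held called genes in both directions. With dCas9-VP160 alone against no plasmid 46 were higher and 55 lower, where 26.6% of all genes were higher and 24.6% lower. Among 21 other genes of fatty acid synthesis, elongation and desaturation, 10 were higher (47.6%) and 6 lower (28.6%), with a list median of 0.05. FADS3, a desaturase-family gene beside FADS1 and FADS2 on chromosome 11, had 58.8 ± 4.86 CPM with dCas9-VP160 alone and 37.5 ± 0.806 CPM without plasmid (SD, n = 2). It rose by 0.65 (SE 0.07, adjusted p = 4.94e-09), opposite to FADS2. SCD5, another stearoyl-CoA desaturase, fell by 0.62 (SE 0.07, adjusted p = 9.07e-08), and ACACB, the mitochondrial acetyl-CoA carboxylase, fell by 0.60 (SE 0.09, 2.92e-06). HSD17B12, which reduces the intermediates that elongases make, rose by 0.45 with dCas9-VP160 alone (SE 0.04, adjusted p = 1.93e-10) and by 0.58 with guides (SE 0.04, 1.02e-12), both against no plasmid. With guides against dCas9-VP160 alone it rose by 0.13 (SE 0.04, adjusted p = 0.0298), where 4.16% of all genes were higher and 3.41% lower. In that comparison HSD17B12 and SCD5 were the 2 genes of the list called, and 0 were called with DESeq2, without either library with guides or without either set of technical replicates.

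Of 15 genes of SREBP processing and lipogenic transcription factors, 9 were lower (60%, against 24.6% of all genes) and 4 higher (26.7%, against 26.6%) with dCas9-VP160 alone against no plasmid. These counts depended on the processing, with 4 lower and 2 higher under DESeq2 and 3 lower and 3 higher with no replicate block. MBTPS1, the protease that makes the first cleavage of the SREBP precursor, had 125 ± 7.80 CPM with dCas9-VP160 alone and 168 ± 22.1 CPM without plasmid and fell by 0.43 (SE 0.04, adjusted p = 9.59e-09). RXRA, the partner of the LXR receptors that induce SREBF1, fell by 0.50 (SE 0.07, adjusted p = 4.73e-07). INSIG1, which holds the SREBP precursor in the endoplasmic reticulum and is itself an SREBP target, rose by 0.41 (SE 0.05, adjusted p = 8.57e-08). In the list of sterol synthesis and uptake, which SREBP-2 governs, 6 of 22 were higher (27.3%, near the 26.6% of all genes) and 11 lower (50%, against 24.6%), with HSD17B7 at 0.90, ACAT2 at 0.54 and STARD4 at -0.58, each passing the test.

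Genes that burn fatty acids were lower more often than higher as well. Among 28 fatty acid oxidation genes 15 were lower and 1 higher with dCas9-VP160 alone (53.6% and 3.57%, against 24.6% and 26.6% of all genes), with a list median of -0.17. CPT1A, which admits long-chain acyl groups to the mitochondrion, had 9.44 ± 2.31 CPM with dCas9-VP160 alone and 15.9 ± 2.34 CPM without plasmid and fell by 0.76 (SE 0.11, adjusted p = 1.53e-06). PDK4, a kinase that restrains glucose oxidation, fell by 0.75 (SE 0.10, adjusted p = 2.44e-07) and ACADS, a short-chain acyl-CoA dehydrogenase, by 0.54 (SE 0.10, 7.66e-05). With guides against no plasmid 15 were lower (53.6%, against 25.9% of all genes) and 2 higher (7.14%, against 26.7%). With guides against dCas9-VP160 alone 3 were lower (10.7%, against 3.41%) and 0 higher (4.16% of all genes). CPT1C led these at -0.46 (SE 0.14, adjusted p = 0.0419).

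Genes downstream of the acyl-CoA pool and those that supply NADPH held called genes on both sides, again beside 26.6% of all genes higher and 24.6% lower. Among 18 other acyl-CoA synthetases and acyl-CoA binding proteins 7 were higher (38.9%) and 2 lower (11.1%), with ACSBG1 at 0.70 and ACBD3 at 0.66 and SLC27A1 at -0.50. In this list 3 were higher and 1 lower under DESeq2, and 2 higher and 1 lower with no replicate block. Among 27 genes of glycerolipid assembly and lipid droplets 7 were higher (25.9%) and 3 lower (11.1%), led by the acyltransferase GPAT3 at 0.93, with MGLL at 0.66 and LPIN3 at -0.56. Of 17 NADPH genes 5 were higher and 5 lower (29.4% each), with the folate enzymes ALDH1L2 at 1.19 and MTHFD2 at 0.60 and malic enzyme ME1 at 0.59 all higher. Among 13 genes of AMP-activated kinase and other regulators of lipogenic enzymes 6 were higher (46.2%) and 4 lower (30.8%). TRIB3, a pseudokinase reported in mouse to promote degradation of acetyl-CoA carboxylase, had 112 ± 17.3 CPM with dCas9-VP160 alone and 26.0 ± 2.45 CPM without plasmid and rose by 2.10 (SE 0.06, adjusted p = 1.92e-20). PRKAB2, a regulatory subunit of the kinase, rose by 0.79 (SE 0.05, adjusted p = 1.59e-12) and TRIB1 fell by 0.77 (SE 0.08, 3.79e-09).

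**Figure D5:**
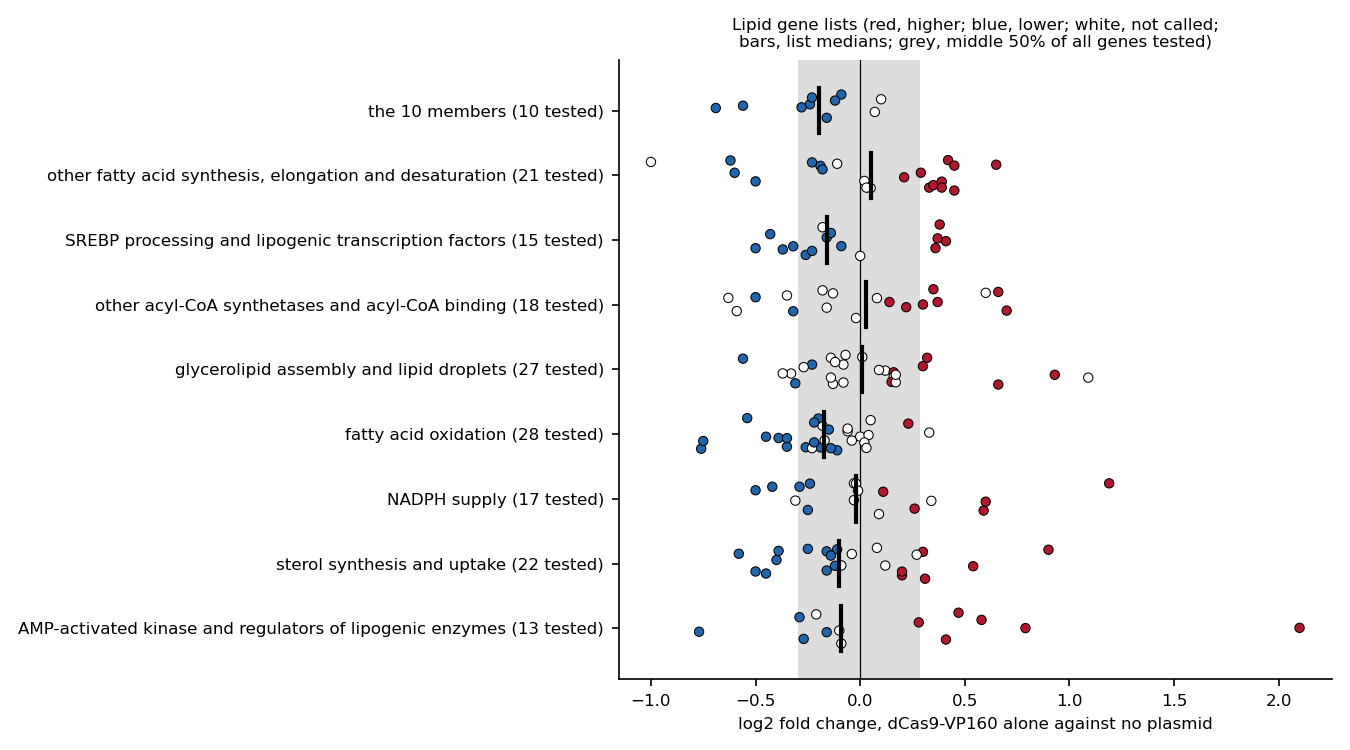
Log2 fold change of dCas9-VP160 alone against no plasmid (x) for the 10 members and the tested genes of 8 other lipid lists (y), with higher genes in red, lower in blue and those not passing an adjusted p of 0.05 in white. Bars are list medians and the grey band is the middle 50% of all genes; the members' median is -0.20, fatty acid oxidation has 15 lower of 28, and TRIB3 at 2.10 is the point farthest right.

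In the comparison of both transfected groups 13 of the 161 other lipid genes were higher and 5 lower, where 4.16% of all genes were higher and 3.41% lower. Alongside ACSL3 and ELOVL5, GPAT4, which takes acyl-CoA into the first step of glycerolipid synthesis, had 132 ± 15.7 CPM with guides and 107 ± 17.0 CPM with dCas9-VP160 alone and rose by 0.30 (SE 0.05, adjusted p = 1.59e-04). AGPAT5 rose by 0.25 (SE 0.06, adjusted p = 0.0128), AGPAT2 by 0.16 (SE 0.04, 0.0167), ACBD3 by 0.21 (SE 0.04, 0.00244) and SCD5 by 0.27 (SE 0.08, 0.0369). ALDH1L2 rose by 0.49 (SE 0.06, adjusted p = 1.64e-05). The 5 lower genes were CPT1C, given above, the electron transfer flavoprotein genes ETFA (-0.23, SE 0.04, adjusted p = 6.39e-04) and ETFDH (-0.25, SE 0.07, 0.0311), the folate enzyme gene MTHFD2L (-0.36, SE 0.09, 0.0105) and TALDO1 of the pentose phosphate pathway (-0.22, SE 0.04, 0.00201). The number of these genes called was 8 instead of 18 without the library with guides of experiment 1, 9 without that of experiment 2, 7 without the first technical replicates and 11 without the second.

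The genes whose log2 levels tracked FASN most closely over the 12 libraries, which share 6 cultures, were CACNA1H (Pearson r = 0.984), HSPG2 (0.980), DLG3 (0.978), PARM1 (0.973) and RHBDL3 (0.972), out of 12225 genes ranked. For SCD they included NFYA (0.977), which encodes a subunit of the CCAAT-binding factor NF-Y, then CTNND1 (0.976), DCBLD2 (0.971) and CBX5 (0.971). Among members, FASN followed SCD (0.908) and FADS2 (0.866) and ran against ACSL3 (-0.597) and ELOVL5 (-0.518). The transfected and no plasmid libraries form separate clusters in these genes, so the values are a description only.

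Summed over the 10 members, levels were 1842 ± 128 CPM with guides, 1723 ± 95.7 CPM with dCas9-VP160 alone and 1959 ± 162 CPM without plasmid (SD, n = 2). Within experiment 1 the sums were 1933 with guides, 1791 with dCas9-VP160 alone and 2074 without plasmid, and within experiment 2 they were 1752 with guides, 1655 with dCas9-VP160 alone and 1844 without plasmid, so both transfected groups were below no plasmid in each experiment. None of the 10 is among the 97 genes in the authors' deposited table of differential expression, in which the smallest change listed is 1.17 on the log2 scale. The statistic in that table is measured from a change of 1 on the log2 scale, a size that no member reached here.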

How the data were processed

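The members, the other gene lists and the tests were chosen with earlier results of these data known. The authors deposited raw read counts per gene in 12 libraries. Per the submitters' processing notes, Trim Galore 0.3.7, STAR 2.6.0c, Picard 2.17.1 and DESeq2 1.16.1 were used with hg38, and the counting program and annotation release are not stated. A second deposited table, of 97 genes, holds, per the file headers, a mean signal (baseMean), log2 fold changes with errors, a statistic (a score) and p-values. It was used only to look up the members.

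Counts of 92 spike-in sequences were left out. Of the 60604 gene identifiers, 41124 had a symbol in the name table and 56812 were in GENCODE v29 (GRCh38), the source of lengths and overlaps. The 2 technical replicates of each group and experiment were summed to 6 libraries. edgeR 4.0.16 in R 4.3.3 (filterByExpr, TMM, robust quasi-likelihood fit) tested 19662 genes with group and experiment as terms, and Benjamini-Hochberg adjustment ran over all of them. Each fit had 2 residual degrees of freedom and borrowed spread from other genes, so p-values describe these 2 batches of 1 line. Levels are TMM-scaled counts relative to a common library total (CPM), except the marker sums, which are CPM without TMM scaling. Errors are the SD of 2 experiments, and the SE is the absolute log2 fold change over the square root of F. A count of 0 allows 0.251 to 0.444 CPM, the level of 3 counts, for counting error only. The interaction fit used the 12 libraries, whose spread is technical, and tested 17975 genes.

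Same-numbered technical replicates did not deviate together (median r = -0.00596 over 15 pairs), whereas differences between experiments correlated between groups (r = 0.604 to 0.627, 3 pairs, 12871 genes), and the labels call the experiments batches, so the experiment is the block. Technical replicates differed by more than counting error (chi-square per degree of freedom 1.84 to 4.38). All 10 members were named. From other lists at most 3 called genes per comparison with a mean of at least 5 CPM were named, by size of change, and for FASN and SCD the 5 most correlated genes. Some genes that meet these rules are not reported here. Alternatives were other scalings, no filter, DESeq2 1.42.0, no block, 12 libraries as samples, single experiments and leaving out libraries. The fits were tested on simulated data that held no difference between experiments, which cannot show how often calls in these libraries are false.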

Additional observations from a re-analysis of the deposited data

Results flagged for a closer look

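In each member and group the highest and the lowest of 4 libraries were compared with the other 3 by Dixon's gap test, over 30 sets of 4. The test picked out 3 values, and chance picks out about 1 set in 20 where the 4 values are independent. Here each set held 2 technical replicates from each of 2 experiments, so that rate is only a guide. ACACA had 127 CPM in replicate 1 of experiment 1 with guides, and 111 to 113 CPM in the other 3 libraries of that group. SCD had 422 CPM in replicate 2 of experiment 1 with guides, and 400.2 to 403 CPM in the others. ACSL3 had 149 CPM in replicate 2 of experiment 2 with dCas9-VP160 alone, and 138 to 139.5 CPM in the others. No explanation for these values was tested.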

How the results depend on the processing

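FASN and FADS2 stayed lower than in no plasmid cells and past the threshold under all 19 alternatives, in both transfected groups. SCD did so under all 19 for dCas9-VP160 alone and under 18 with guides. Without the replicate block for experiment it had an adjusted p of 0.0688. Counts of members called moved under a few settings. For dCas9-VP160 alone against no plasmid, DESeq2 lost the calls of ACACA, ACLY, ELOVL6 and SREBF1 (adjusted p = 0.0667, 0.147, 0.0932 and 0.081). With no replicate block those calls and that of FADS1 were lost. The count was 4 with DESeq2, 3 with no replicate block, 4 from experiment 1 alone and 5 from experiment 2 alone, instead of 8. With guides against no plasmid it was 5 with DESeq2 and 4 with no replicate block, instead of 8. With guides against dCas9-VP160 alone it was 0 with no replicate block and 0 from experiment 2 alone, and 0 to 3 when libraries were left out. Between experiments it was 2 with DESeq2, instead of 6, and 2 to 6 when libraries were left out. The block by technical replicate number changed no member's call. Counts over the other lipid lists were 49 (instead of 101) and 56 (instead of 104) with no replicate block for dCas9-VP160 alone and with guides, each against no plasmid. With guides against dCas9-VP160 alone they were 11 with DESeq2, 0 with no replicate block, 7 and 6 from experiments 1 and 2 alone and 7 to 22 with libraries left out, instead of 18. Between experiments they were 31 with DESeq2 and 31 to 49 with libraries left out, instead of 60.

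Some values near 0 changed sign, and the cause was not tested. FADS1 with guides against no plasmid was -0.008389 under upper quartile scaling. Over the fits that left libraries out, ACACA (-0.27 to 0.0009296) and ACLY (-0.10 to 0.0502) did so with guides against no plasmid. With guides against dCas9-VP160 alone the ranges were -0.04663 to 0.08981 for ACACA, -0.01719 to 0.1019 for SCD, -0.03201 to 0.12 for FADS2 and -0.07655 to 0.2959 for SREBF1, which was -0.04226 from experiment 2 alone. Each experiment is 1 batch of cells, and members with changes well above 0.1 log2 units also lost their calls. SREBF1 (-0.28, dCas9-VP160 alone against no plasmid) and ELOVL6 (-0.27, with guides against no plasmid) did so with DESeq2 and with no replicate block.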
